A study of Mus musculus with 10 samples.

Results

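Trimethylation of histone H3 at lysine 4 (H3K4me3) was compared between mouse embryonic stem cells expressing WWD Dnmt3a2 and cells expressing WT Dnmt3a2. All 32293 regions of the deposited H3K4me3 table were used, of 85618 regions in the 3 deposited tables, and each was described by its reads in 1 WWD library and 1 WT library. Both groups were Dnmt TKO cells of the J1 line at passages 7 to 10. In this field, TKO names cells without Dnmt1, Dnmt3a and Dnmt3b, so both groups share the loss of the cells' own DNA methyltransferases and differ in the Dnmt3a2 construct put back. Both libraries carry the number 1 in their labels, where other Dnmt3a2 samples are called bulk, and the labels do not say whether the number means 1 clone or what promoter drives the constructs. Chromatin was cut by micrococcal nuclease and sonication before the H3K4me3 antibody was added. The third H3K4me3 library, from cells expressing R Dnmt3a2, served as a reference value and to order regions by level. It also entered the pseudocount, a constant added to both libraries before log2 ratios. The Dnmt3a2 columns of the same table served only as a reference value. The study engineered the histone-reading domain of Dnmt3a, by its title, and the labels do not spell out the residues behind WWD or R.

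H3K4me3 marks the nucleosomes around the start sites of active and poised genes and is laid down by the SET1 and MLL methyltransferase complexes. The ADD domain of Dnmt3a binds the H3 tail when lysine 4 is unmethylated, and methylation of that lysine weakens the contact. Promoters with H3K4me3 therefore usually carry little DNA methylation. The comparison asks how H3K4me3 itself was distributed in cells whose Dnmt3a2 had an altered reading domain. The table names regions by position on mm9 and gives no genes, so regions are named by mm9 coordinates, and the cell type could not be checked against its marker genes.

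The WT library had 18801269 reads in all and the WWD library 26012284. Each region is 100 bp wide. The median region held 41 reads in WT (lowest 0, highest 2183) and 51 in WWD (lowest 0, highest 2918). Per 10000000 library reads, the unit used for all levels below, these medians were 21.8 and 19.6. The strongest 10% of regions held 35.0% of the reads of the table in WT and 35.5% in WWD. With 1 library per construct there is no replicate spread and no test, and every value below describes these libraries. Intervals are exact 95% counting intervals, which take reads as independent and cover counting error only, although PCR reads are not independent molecules.

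Per library read, H3K4me3 summed over the regions was slightly lower in WWD than in WT, and single regions scattered widely around that factor. Summed over all regions, reads per library read in WWD were 0.891 times those in WT (counting interval 0.889 to 0.892). The reads of the table made up 11.1% of the WT library, 9.87% of the WWD library and 9.29% of the R library. The summed ratio is the WWD share over the WT share. Scaled by reads within the regions it would be 1 by construction, so it says nothing of the amount of H3K4me3 per cell. The median log2 ratio of WWD over WT was -0.13, taken after adding a pseudocount of 3.72 reads per 10000000 to both. The middle 80% of regions lay between -1.25 and 0.90, so single regions differed in both directions by far more than the median shift.

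Regions more than 2-fold higher in WWD numbered 2727, which is 8.44% of all regions. Regions more than 2-fold lower numbered 4850, or 15.0%. A further 133 regions, with 7 reads in WT and 0 in WWD, lay exactly at 2-fold lower and were not counted. Lower regions made up 64.0% of those past 2-fold. Subtracting from each library its own median over regions, which differ by -0.13, gave 3388 higher (10.5%) and 3947 lower regions (12.2%), and the lower share was 53.8%. Scaling by the reads within the regions gave 3368 higher and 4078 lower, a lower share of 54.8%. The excess of lower over higher regions thus depended on the scaling. Past 4-fold, scaled by library totals only, there were 305 higher (0.944%) and 669 lower regions (2.07%).

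**Figure D1:**
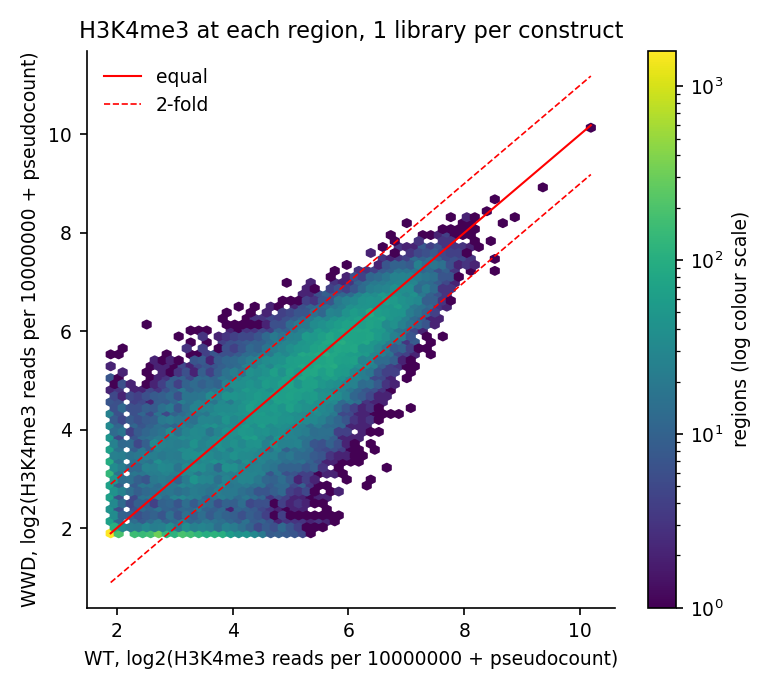
H3K4me3 at each of 32293 regions in WT (x axis) and WWD (y axis), as log2 of reads per 10000000 library reads plus a pseudocount of 3.72. Colour gives the number of regions on a log scale, the solid line marks equal levels and the dashed lines 2-fold. Strong regions lie close to the solid line and weak regions spread past both dashed lines.

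The scatter of single regions was wider than counting error. The counting interval of the WWD over WT ratio lay wholly above 1 at 6337 regions (19.6%) and wholly below 1 at 10843 (33.6%). It lay wholly above 2 at 1447 regions (4.48%) and wholly below 1 in 2 at 3022 (9.36%). These counts are scaled by library totals only. With the overall ratio at 0.891, the excess of intervals below 1 depends in part on that scaling. Among the 10% of regions strongest in the R library, whose reads play no part in the ratio, the interval missed the overall ratio of 0.891 at 57.6% of regions. What made the reads of single regions differ was not tested.

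Ordering regions by the R library showed how the ratio varied with level without using WT or WWD to form the order. Regions were split into 10 classes of about equal size, and the lowest 2 were joined because regions with 0 reads in R tie. In this weakest class the mean level was 5.53 in WT and 4.87 in WWD, a ratio of summed reads of 0.881. In the strongest class it was 102 in WT and 91.3 in WWD, a ratio of 0.896. Over all classes the ratio stayed between 0.863 and 0.896. By this order weak and strong regions had nearly the same summed ratio. Ordered instead by the mean of WT and WWD, which uses the libraries compared, the ratio was 0.371, 0.727 and 0.843 in the 3 weakest of 10 classes and 0.894 in the strongest. The strongest over the weakest class was then 2.41 in place of 1.02. From class 4 up to the strongest, class 10, the ratio lay between 0.884 and 0.901 in this order too. The lower ratios were thus confined to the 3 weakest classes, where the mean level in WT was 7.70 or less.

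What varied with level was the span of the log2 ratio. It includes counting error and the pull of the pseudocount, both larger at few reads. The counting interval missed the overall ratio of 0.891 at 42.9% of regions in the weakest class and 57.6% in the strongest. Weak regions have wider intervals, so the span alone does not show that strong regions agreed better. The span from the 10th to the 90th percentile of the log2 ratio was 2.51 in the weakest class and 1.32 in the strongest. In the weakest class, 12.3% of regions were over 2-fold higher and 17.2% over 2-fold lower. In the strongest class these shares were 1.54% and 5.82%, both under the 8.44% and 15.0% of all regions. After centring they were 2.55% and 3.57%. The median log2 ratio was between -0.18 and -0.14 in each of the upper 8 classes. It was 0 in the weakest, which holds the 1303 regions with no read in any of the 3 libraries.

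**Figure D2:**
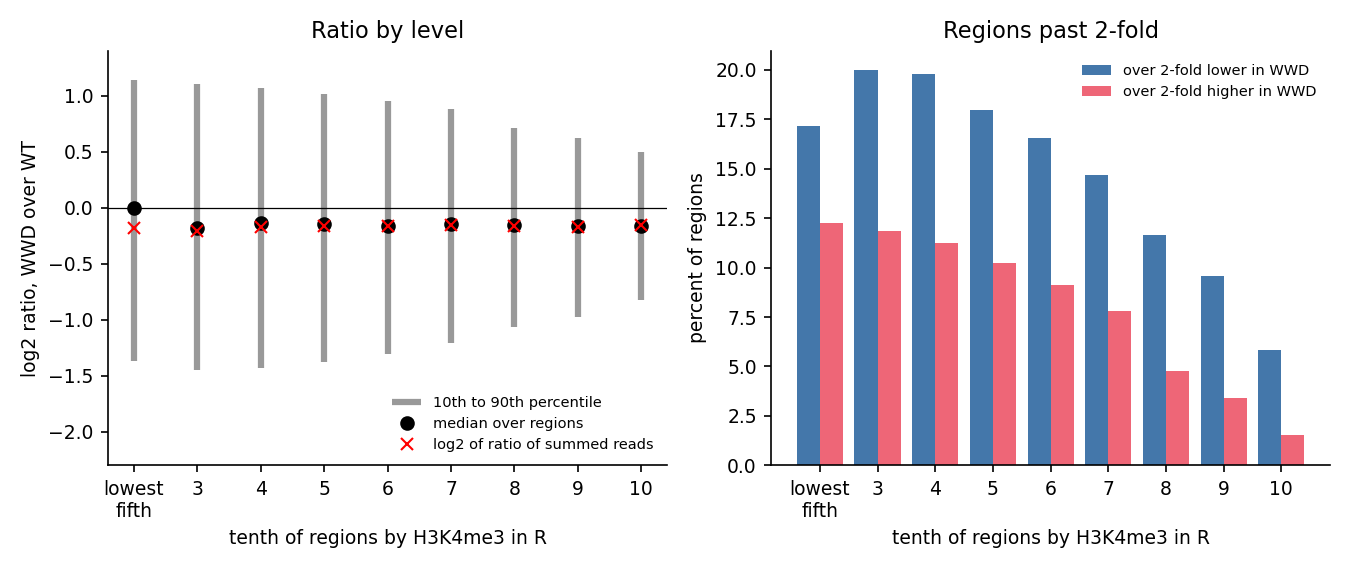
Left, log2 ratio of WWD over WT by class of regions ordered by H3K4me3 in R (axis numbers 3 to 10, strongest at 10), with the median (circle), the 10th to 90th percentile (bar) and the log2 of the ratio of summed reads (cross). Right, percent of regions over 2-fold lower or higher in WWD, which is 17.2% and 12.3% in the weakest class and 5.82% and 1.54% in the strongest.

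None of the 5 strongest regions was past 2-fold, and their ratios ran from 0.641 to 1.06. The strongest, chr19:61275611-61275710, held 2918 reads in WWD, 2183 in WT and 2734 in R. Its level was 1161 in WT and 1122 in WWD, a ratio of 0.966 (0.914 to 1.02). The next, chr17:3084298-3084397, held 1236 reads in WT and 1260 in WWD, a ratio of 0.737 (0.681 to 0.798). At chr8:75094805-75094904 the reads were 719 and 1052, a ratio of 1.06 (0.961 to 1.16). Another pair of regions on chromosome 8 was lower in WWD. The first of them, chr8:19784863-19784962, held 892 reads in WT and 791 in WWD, a ratio of 0.641 (0.582 to 0.706). The second, chr8:20019787-20019886, held 782 and 738, a ratio of 0.682 (0.616 to 0.755). The labels do not say how reads matching several places were counted. Among the 500 regions with the highest mean of WT and WWD, 4 were over 2-fold higher and 9 over 2-fold lower, and the summed ratio was 0.914.

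More regions lacked H3K4me3 reads in WWD than in WT, although the WWD library was the deeper one. No read was present at 2616 regions in WT, 8.10% of all. In WWD the number was 3849, or 11.9%. Thinned to the WT total, the WWD library would be at 0 in an expected 12.5% of regions. Both libraries were at 0 in 1601 regions. WWD alone was at 0 in 2248 regions, where the median was 8 reads in WT. WT alone was at 0 in 1015, where the median was 12 reads in WWD. The R library, the deepest at 27424019 reads, had no read at 5791 regions (17.9%), more than WWD.

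A stricter rule for presence in 1 library alone asks for 10 reads. At least 10 reads in WT and 0 in WWD were found at 938 regions (2.9%), and at least 10 in WWD and 0 in WT at 600 (1.86%). The R library was at 0 in 451 of the 938 and in 335 of the 600. Regions that met this rule were thus also empty in R in 48.1% and 55.8% of cases, against 17.9% of all regions. Most regions that meet the rule are weak, with a median of 16 reads in WT and 17 in WWD in the library that has them. A count of 0 allows up to 3 reads, which is 1.60 per 10000000 in WT and 1.15 in WWD.

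The regions with the firmest single differences, ranked by the counting bound nearest to 1, were nearly all at 0 reads in 1 library. These bounds make no allowance for choosing the extremes of 32293 regions. At chr16:20452934-20453033 WWD had 110 reads, WT 0 and R 4. Taking 3 reads in place of 0, WWD was 26.5-fold higher. The 95% counting bound, given in parentheses for the regions that follow, was 21.2-fold. The region 349 bp away held 154 reads in WWD, 40 in WT and 160 in R, and so had reads in all 3 libraries. At chr3:87709862-87709961 WWD had 92 reads and WT and R 0, which is 22.2-fold higher against 3 reads (bound 17.7). Its nearest neighbour, 1256 bp away, held 219 reads in WT and 239 in WWD. The 0 in WT thus had a region with many reads in both libraries near it.

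The region chr16:50438163-50438262 had few reads near it, with 87 reads in WWD against 0 in WT and R, 21.0-fold higher against 3 reads (bound 16.7). Its neighbour 243 bp away held 5 reads in WWD and none in WT or R. At chr7:86543051-86543150 WT held 0 reads, WWD 77 and R 77, so WT stood apart from both mutants there. The same was true of chr16:45724725-45724824, where WWD had 77 reads, R 49 and WT 0. Its neighbour at 329 bp held 19, 135 and 56 reads in WT, WWD and R.

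In the other direction, chr11:119216917-119217016 had 68 WT reads, 0 WWD reads and 235 R reads, 31.4-fold lower in WWD with 3 reads in place of 0 (bound 24.8). Its nearest neighbour lay 24114 bp away. WWD alone lacked reads there. At chr17:80366640-80366739 there were 61 reads in WT and 0 in both WWD and R, 28.1-fold lower by the same measure (bound 22.2). At chr15:76353458-76353557 WT had 64 reads, WWD 0 and R 40, while the region 441 bp away held 106 in WT and 195 in WWD. At chr6:86544913-86545012 WT held 56 reads, WWD 0 and R 77. Over the 10 regions named in this direction, WT held 56 to 68 reads and R 0 to 235.

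Neighbouring regions shared their level but hardly shared their difference between WWD and WT. Of all regions, 7056 had the region before them less than 500 bp away, and the closest pair was 118 bp apart. Over these pairs the reads of a region and its neighbour had a Spearman's rho of 0.51 in WT and 0.46 in WWD. Reads of a region in WT and of its neighbour in WWD had a rho of 0.48. The log2 ratios of the 2 regions had a rho of 0.056. Among pairs with both regions above the median level it was 0.040. These are correlations over pairs of regions from the same 2 libraries, not over replicates.

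The rho of the ratios was low at other distances too. At 200 to 500 bp the rho of the log2 ratios was 0.061, at 500 to 1000 bp 0.039 and at 1000 to 2000 bp 0.045, whereas that of the WT reads was 0.50, 0.44 and 0.44. At 5000 to 20000 bp the rho of WT reads was 0.11 and that of the ratios 0.024. A region next to one over 2-fold higher in WWD was itself over 2-fold higher in 12.3% of 465 cases, against 6.55% of all regions with a neighbour this near. For lower regions the share was 16.2% of 1079 cases, against 14.3%. Both members were higher in 57 pairs and both lower in 175, and 135 pairs had 1 higher and 1 lower region.

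**Figure D3:**
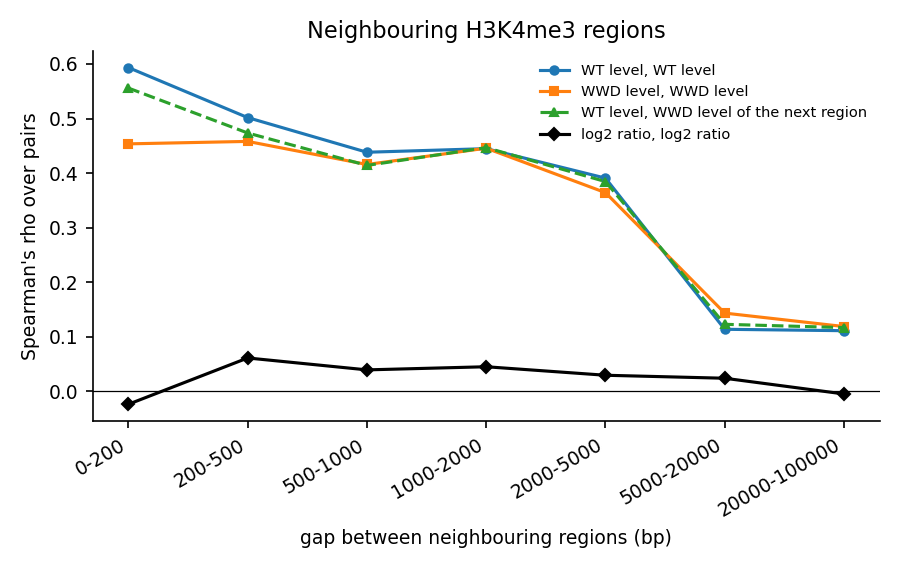
Spearman's rho between neighbouring regions (y axis) by the gap between them in bp (x axis), for WT reads, WWD reads, WT reads against WWD reads of the next region, and the log2 ratio of WWD over WT. For WT reads rho is 0.39 at 2000 to 5000 bp and 0.11 at 5000 to 20000 bp, while that of the ratio stays between -0.024 and 0.061.

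Joining regions less than 1000 bp apart into islands gave wider units with more reads. There were 21732 islands, of which 13990 were single regions and the largest held 7. Islands of at least 3 regions with at least 100 reads over both libraries numbered 2104, with a median of 233 reads in WT and 281.5 in WWD and a median span of 1228 bp. Their median log2 ratio was -0.18, and the middle 80% lay between -0.84 and 0.43. Only 35 of them were over 2-fold higher in WWD (1.66%) and 140 over 2-fold lower (6.65%). Scaled by the reads within the table's regions, the counts were 56 and 94.

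Within an island the regions often went both ways. In 72.9% of the 2104 islands some regions were above WT and others were not. In 20.8% each region was lower in WWD, and in 6.32% each was higher. The median log2 ratio of all regions was itself below 0, at -0.13. The shares that unrelated regions would give were not worked out. Of the 35 islands past 2-fold higher, 21 had every region higher, and of the 140 lower ones 106 had every region lower. The 10th to 90th percentile span of the log2 ratio was 1.88 for single-region islands of at least 100 reads, 1.52 for 2 regions, 1.31 for 3 and 1.08 for 4. Larger islands also held more reads. Between 200 and 400 reads the span was 1.66 for 1 region and 1.48 for 4.

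Among islands higher in WWD, the highest ratio was on chromosome X. This island, chrX:7626520-7628198, held 3 regions with 6, 0 and 5 reads in WT, 30, 46 and 21 in WWD and 0, 14 and 0 in R. Its summed ratio was 6.37 (3.41 to 13.2), and each of its regions was higher in WWD than in both other libraries. The island chr10:31328183-31329630 held 0, 6 and 12 reads in WT and 39, 22 and 64 in WWD, a ratio of 5.02 (3.05 to 8.75). In R its reads were 0, 52 and 0, so both outer regions had no reads in R.

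The island chr2:20592978-20594737 was more even, with 18, 7 and 19 reads in WT and 63, 56 and 65 in WWD, a ratio of 3.02 (2.17 to 4.30). In R it held 29, 42 and 22. A 4-region island, chr1:135564891-135566760, held 37, 10, 9 and 15 reads in WT and 118, 71, 19 and 89 in WWD, a ratio of 3.02 (2.33 to 3.97). At chr13:96901030-96902250 both mutants were above WT, with summed reads of 218 in WWD, 232 in R and 52 in WT. The WWD ratio was 3.03 (2.23 to 4.18) and that of R, which has the same WT reads below it, was 3.06.

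Islands lower in WWD had larger folds. The lowest, chr2:146659940-146661237, held 24, 76 and 25 reads in WT and 12, 1 and 0 in WWD. WT was 13.3 times WWD (7.50 to 25.7), and R held 3, 39 and 0 reads. The next, chr8:128434046-128435374, held 20, 48 and 24 reads in WT and 0, 1 and 10 in WWD, a WT to WWD ratio of 11.6 (6.17 to 24.0). R held 0, 61 and 26 reads there, at 0 like WWD in the first region and nearer to WT in the others. Of the 10 lowest islands 4 lay on chromosome 6, and 2 of these, chr6:31166605-31168052 and chr6:31348610-31349415, stood within 1 megabase of each other. Chromosome 6 as a whole, with 1522 regions, had a ratio of 0.906 and 13.3% of regions over 2-fold lower, against 15.0% of all regions. Of the near pair, the first held 36, 12 and 48 reads in WT and 7, 6 and 16 in WWD, the second 88, 152 and 25 in WT and 61, 10 and 15 in WWD.

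At chr4:57794802-57796082 the mutants parted, with summed reads of 31 in WWD, 236 in R and 105 in WT. WT was 4.69 times WWD (3.11 to 7.24), while R was 1.54 times WT. These named islands held between 0 and 10 Dnmt3a2 reads in WT and between 0 and 8 in WWD. Low counts were general, as 90.1% of all regions had 0 Dnmt3a2 reads in WT and 74.5% in WWD.

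**Figure D4:**
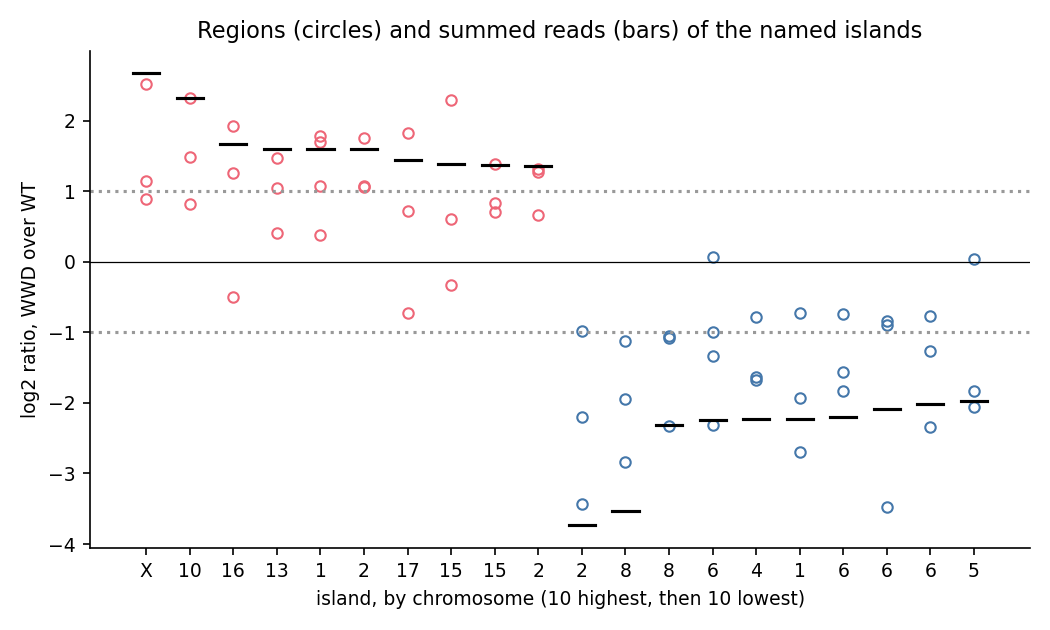
Log2 ratio of WWD over WT for the regions (circles, with the pseudocount) and the summed reads (bars, without it) of the 10 highest and 10 lowest islands, labelled by chromosome. Dotted lines mark 2-fold. Regions of 1 island differ in size, and in 3 of the 10 highest and 2 of the 10 lowest a region lies on the other side of 0.

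By chromosome, the 19 autosomes had summed ratios between 0.856 on chromosome 10 and 0.930 on chromosome 3, with a median of 0.887 and an SD of 0.018 over autosomes. Chromosome X, with 1012 regions, had a ratio of 0.971 (0.957 to 0.984), above each autosome. Its mean level was 18.96 in WT and 18.4 in WWD, which is 0.558 and 0.592 times that of the median autosome. The median log2 ratio of its regions was 0.00, against -0.19 to -0.06 over the autosomes. Its regions were over 2-fold higher in 10.5% of cases and over 2-fold lower in 15.3%, against 8.44% and 15.0% of all regions. A lone region on chromosome Y had a level of 64.4 in WT and 38.4 in WWD.

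The R to WT ratio was also highest on chromosome X, at 0.932 against 0.785 to 0.874 over the autosomes. Both ratios have the same WT library below them, so they are not separate evidence. Since regions on X were weaker, X was also set against autosomes within classes of like R level, a comparison added after the data were seen. X was above the autosomes in 7 of 9 classes, with a median of 1.11 times and a range of 0.972 to 1.25, and the smallest class held 18 regions of X. Along X in blocks of 20 Mb the ratio ranged from 0.823 in the last block, with 40 regions, to 1.06 between 40 and 60 Mb. Of these 9 blocks, 8 were above the median autosome, at 0.898 or more.

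Chromosome 8 had the highest level of all autosomes, 1.36 times the median autosome in WT and R and 1.30 times in WWD. Its ratio of WWD over WT was 0.874 (0.868 to 0.880), within the range of the others. Over 214 blocks of 10 Mb with at least 50 regions, the ratio had a median of 0.897 and ranged from 0.735 to 1.10. It was above 1 in 16 blocks, 3 of them among the 11 blocks of chromosome X. The lowest block was chromosome 4 from 30 to 40 Mb, with a mean level of 41.1 in WT and 30.2 in WWD. By position along the autosomes, the ratio was 0.864 in the last of 10 equal stretches and at most 0.909 in the others.

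**Figure D5:**
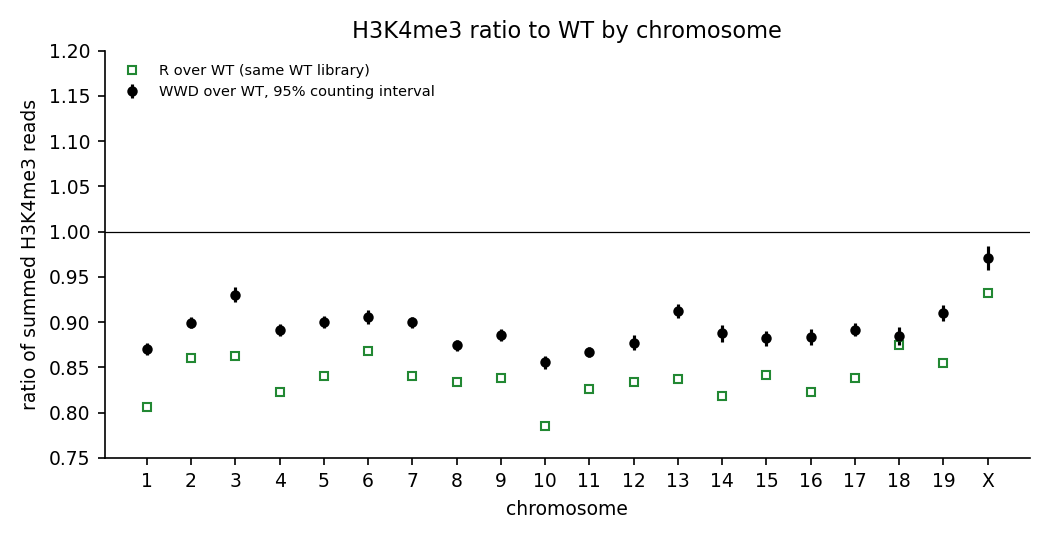
Ratio of summed H3K4me3 reads to WT by chromosome, for WWD (filled circles, bars show the 95% counting interval) and R (open squares, same WT library). The y axis does not start at 0. WWD lies between 0.856 and 0.930 on the autosomes and at 0.971 on chromosome X.

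No region of the H3K4me3 table overlapped a region of the H3K4me1 or H3K4me2 tables, yet 15169 lay within 500 bp of an H3K4me2 region and 953 within 500 bp of an H3K4me1 region. H3K4me2 marks promoters and enhancers and H3K4me1 is typical of enhancers. Regions near H3K4me2 had a mean level of 40.9 in WT and 36.2 in WWD, a summed ratio of 0.886 (0.884 to 0.888). Regions near neither, 16600 in number, had 29.0 and 26.0, a ratio of 0.896 (0.894 to 0.899). Regions near H3K4me1 were weaker, at 17.7 and 15.9, with a ratio of 0.901 (0.887 to 0.914). The first and last of these classes share 429 regions, and the ratios of all 3 lay between 0.886 and 0.901.

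In each class the share of empty regions was higher in WWD. Near H3K4me2, 3.57% of regions had no read in WT and 6.58% in WWD. Near neither the shares were 11.8% and 16.2%, and near H3K4me1 they were 15.6% and 23.5%. Over 2-fold higher regions made up 7.23% of those near H3K4me2, 11.1% of those near H3K4me1 and 9.46% of the rest, and over 2-fold lower regions 14.9%, 16.6% and 15.1%.

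In regions chosen for their difference between WWD and WT, the mean of the R library lay in between, although R did not in most single regions. Regions over 2-fold higher in WWD had a mean level of 26.7 in WWD, 7.80 in WT and 14.7 in R. Those over 2-fold lower had 9.71 in WWD, 32.1 in WT and 19.2 in R. In the rest R was lowest, at 32.2 against 35.1 in WWD and 37.7 in WT. R lay between WT and WWD in 40.4% of the higher and 44.5% of the lower regions. It was at or above WWD in 17.5% of the higher regions and at or below WWD in 35.9% of the lower ones. R was at 0 in 25.3% of the higher and 19.96% of the lower regions, against 17.9% of all. Because the regions were picked by WT and WWD, their levels differ by the rule itself. The R values entered the choice only through the pseudocount. A library not used to pick extremes tends to fall between them, so the R means in between say little about R.

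Dnmt3a2 reads at the same regions gave a readout that the H3K4me3 ratio does not use. The Dnmt3a2 columns hold 1 library per construct, and the labels list 2 samples for each, so which sample a column holds is not known. The WT Dnmt3a2 library, of 24015095 reads, was deeper than that of WWD, and levels are per library read. Mean WWD Dnmt3a2 was 0.575 where H3K4me3 was over 2-fold higher, 0.480 where it was over 2-fold lower and 0.481 in the rest. Mean WT Dnmt3a2 was 0.241, 0.172 and 0.167 in the same classes. The WWD to WT ratio of Dnmt3a2 was therefore 2.38, 2.79 and 2.87. Averaged over classes of like R H3K4me3 level it was 2.48, 2.84 and 2.92. Both Dnmt3a2 columns were thus higher at regions where H3K4me3 was higher in WWD. So was the R Dnmt3a2 column, at 0.243 there, 0.151 in lower regions and 0.187 in the rest. Most regions had no Dnmt3a2 read. In the higher, lower and remaining regions 27.8%, 25.1% and 25.3% had any in WWD. In WT the shares were 13.1%, 9.84% and 9.54%.

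Read the other way, the H3K4me3 ratio was below the overall 0.891 at regions with 0 Dnmt3a2 reads and above it at regions with 10 or more, in each of the 3 Dnmt3a2 columns. The columns cover the same regions, and how far their classes share regions was not worked out, so they are not separate evidence. At the 24073 regions with 0 WWD Dnmt3a2 reads the H3K4me3 ratio was 0.885, and at the 233 with 10 or more it was 0.945. With the WT Dnmt3a2 column the ratio was 0.888 at 29100 regions with 0 reads and 0.950 at 221 with 10 or more, with 0.921 at 1 or 2 reads and 0.915 at 3 to 9. With the R column it was 0.888 and, at 361 regions, 1.01. The share over 2-fold higher was 13.3% at the 233 regions, 15.4% at the 221 and 12.5% at the 361, against 8.44% of all regions. The share over 2-fold lower was 14.6%, 11.8% and 9.97%, against 15.0%. The R over WT ratio of H3K4me3, which has the same WT library below it, was also higher at 10 or more reads than at 0. From 0 reads to 10 or more it went from 0.833 to 0.863 with the WWD column. With the WT column it went from 0.835 to 0.910, and with the R column from 0.835 to 0.860. With the R column it was highest at 3 to 9 reads, at 0.873. The median log2 ratio of WWD over WT was -0.063 at 3 to 9 WWD Dnmt3a2 reads and -0.086 at the 233 regions. At the 221 and the 361 regions it was 0, against -0.13 over all regions. Input was not analysed here.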

How the data were processed

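H3K4me3 was measured by ChIP-seq in 1 library per construct. Bowtie and mm9 are the aligner and build named per the submitters' processing notes. For versions, read filters and region calling, details were not given in the sources. The deposited log2 values are log2 of 1 plus a factor times the sum of whole reads and an amount below 1, a form read from the values and headers. Region positions were used as the authors deposited them. Whole reads were recovered as the floor of (2 to the power of the value, minus 1) over the factor, where the factor is the effective total over the total of the file headers. Rounding to 2 decimals leaves an error of up to 0.347% of 1 plus the scaled reads, so reads are exact or nearly so at low values and approximate at high ones. The recovery and the calls were tried on simulated data of this same form with counting error only. Such data cannot check whether the deposited values have that form.

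Reads were scaled to 10000000 library reads. Log2 ratios used a pseudocount of 3.72, the 10th percentile of the positive values of the 3 H3K4me3 libraries. Islands had no pseudocount. Named single regions are the 10 highest and 10 lowest by the counting bound nearest to 1, named islands the 10 highest and 10 lowest by ratio, and the 5 strongest regions have the highest mean, with examples given. The members and rules were chosen with earlier results of these data known. No count test was planned, since each construct has 1 library. Another 2 read columns, of H3K4me1 and H3K4me2, match no sample of the list and stayed unused. No mm9 genome or annotation was used here, so no gene lists and no sequences are given. Alternatives covered pseudocount, filters, scaling, ordering, joining distance and read minimums. Python 3.11.15, numpy 2.4.6, pandas 2.3.3, scipy 1.17.1 and matplotlib 3.10.9 were used.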

Additional observations from a re-analysis of the deposited data

How the results depend on the processing

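With 1 library per construct nothing could be left out. No paired analysis was possible because each construct had 1 H3K4me3 library, so a replicate block leaves no residual spread. Among 20 results with 58 alternatives, 24 values stayed near the reported one (inside its counting interval, or for counts within 1.5 times), 33 moved further and 1 changed sign. The intervals are narrow at this depth, so small moves leave them. With pseudocounts at the 1st percentile and at the median, the median log2 ratio was -0.15 and -0.061. It was -0.15 with at least 10 reads, -0.15 above the median level, 0 when scaled by reads in regions and -0.20 for deposited values. Centring takes away the shift between the library medians, -0.13, and left it at 0.0036, so its sign changed. The same pseudocounts gave 4109 and 169 higher regions beside 7295 and 515 lower ones, since adding more reads pulls ratios to 1. Regions above the median level, fewer by construction, gave 733 and 1664. The summed ratio was 0.893 with at least 10 reads and 0.895 above the median level. Ordered by the mean of WT and WWD, the ratio in the strongest class over that in the weakest was 2.41 in place of 1.02, with 0.898% higher and 4.46% lower regions in the strongest and 0% of both in the weakest, where few reads cannot pass the pseudocount. After centring these shares were 2.55% and 3.57% in the strongest class of the R order, and 14.1% and 14.8% in the weakest. X minus the median autosome was 0.15 within classes of like R level, a setting added after the data were seen, against 0.13 (log2). Islands joined under 500 bp gave 19 higher and 65 lower of 1079, and scaled by reads in regions 56 higher with a median of -0.014. With at least 5 reads, 1588 regions were in WT alone. With at least 20 there were 302 in WT alone and 240 in WWD alone. Within 2000 bp the ratio near H3K4me2 over that near neither was 0.967, and near H3K4me1 0.979, in place of 0.988 and 1.005. No region overlapped those tables, so the overlap setting gave no value. Depth limits weak regions most.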
